A study of Daphnia magna with 2 samples.

Results

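The genes described here are the digestive enzymes and cathepsins of the water flea Daphnia magna, 120 of the 33957 genes in the gene list of a single-cell atlas. A gene belongs to them if its first symbol begins with PRSS, TMPRSS, CTRB, CTRL, CELA, CPA, CPB, PNLIP, AMY or CTS. These symbols are names of similar human proteins, each followed in the gene list by that of a fly protein, so PRSS2/ALPHATRY is a Daphnia gene that resembles human trypsin 2 and Drosophila alphaTry. By symbol, 54 genes are serine proteases (29 named PRSS, CTRB, CTRL or CELA and 25 named TMPRSS). Of the others, 37 are carboxypeptidases, 8 are lipases, 3 are amylases and 18 are cathepsins. The names overlap in places: 51 of the 120 genes share their transcript identifier with another gene of the list and 11 have none, so reads of near-identical copies could have been divided between them.

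The study prepared cells from whole Daphnia magna with collagenase at 4 mg per ml and barcoded their polyA RNA in droplets (inDrops). The design allowed male and female, young and old, and head and body to be compared. The first of the 2 samples, called mixed here, carries in its title male, female, young and old. The second, called young here, has young and collagenase in its title. Both samples carry the whole body label and had the standard laboratory treatment. No strain, genotype, age in days or number of pooled animals is given in the labels. The mixed sample is divided into 7 library codes (FYB, FYH, F4W, FO1, FO2, MY1, MY2) and the young sample into 3 (CH1, CH2 and Y2). The labels do not spell these codes out, so they are used here as technical units and not as sexes, ages or body parts.

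Each group is 1 sample, and no difference between the samples has a replicate check. No test or p-value was therefore computed. Intervals at 95% are exact and cover counting error only. A summed sample also cannot tell fewer cells of a type from less RNA per cell.

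In crustaceans the midgut and its caeca make trypsins, chymotrypsins, carboxypeptidases, lipases and amylases and release them into the gut lumen, where food is broken down outside the cell. Trypsins, chymotrypsins and elastases cut inside a protein chain, carboxypeptidases remove residues from its end, lipases split fats and amylases split starch. Cathepsins act mainly inside lysosomes of most cell types, although in several arthropods cathepsins of the L and B kind are also secreted for digestion. The TMPRSS symbols come from human membrane-bound serine proteases, many of which act outside the gut.

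Barcodes with at least 500 molecules counted (unique molecular identifiers, UMIs) were taken as cells: 2253 barcodes with 2779211 UMIs in the mixed sample and 2099 barcodes with 2314350 UMIs in the young sample. Their median depth was 940 UMIs in the mixed sample and 829 in the young sample. The remaining barcodes hold most of the molecules, since the kept ones carry 33.5% of all UMIs in the mixed sample and 19.2% in the young sample. FYB alone gave 1103 of the 2253 kept mixed barcodes. The mixed list begins at 57 UMIs and has 48846 barcodes, whereas the young list has 442368, of which 59936 have no count, so the lists reach down to different depths. The barcodes are numbered and not spelled out, so the number shared between libraries could not be counted.

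In the summed kept barcodes, serine proteases were the most abundant of the 5 enzyme groups and were at nearly the same level in both samples. They reached 2102 counts in every 1000000 UMIs (CPM) in the mixed sample and 2087 CPM in the young sample, a ratio of 1.01 (interval 0.970 to 1.05). Cathepsins came next with 1777 CPM in the mixed sample and 1438 CPM in the young sample, a ratio of 1.24 (1.18 to 1.29). Carboxypeptidases gave 752 CPM in the mixed sample and 568 CPM in the young sample. Lipases gave 232 CPM in the mixed sample and 335 CPM in the young sample. Amylases gave 211 CPM in the mixed sample and 214 CPM in the young sample.

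These sample differences are small beside the spread between library codes. Serine proteases ranged from 959 CPM in MY2 over a median of 1590 to 4388 CPM in FYH among the mixed codes, whereas the young codes lay at 2054 CPM in CH1, 2092 CPM in CH2 and 2136 CPM in Y2. Carboxypeptidases ranged from 303 CPM in MY2 over a median of 401 to 1173 CPM in F4W among the mixed codes, and from 547 to 583 CPM among the young codes. Cathepsins ranged from 1222 CPM in F4W over 1683 to 2144 CPM in FYB among the mixed codes and from 1180 CPM in Y2 to 1631 CPM in CH2 among the young codes. In every enzyme group the mixed and young codes overlapped. The carboxypeptidase and cathepsin differences also depended on scaling. Their log2 ratios of mixed over young were 0.40 and 0.30 on CPM, and -0.07 and -0.17 after TMM scaling. The median log2 ratio of all tested genes was 0.52 on CPM and 0.05 after TMM. The near equality of serine proteases was likewise one of CPM, and after TMM they were lower in the mixed sample.

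The most abundant serine protease gene over both samples was TMPRSS15/CORIN DAPMA1EVG013692, named after human enteropeptidase, which activates trypsinogen in the human gut, and fly Corin. Its level was 430 CPM in the mixed sample and 432 CPM in the young sample. The mixed codes ran from 213 CPM in MY2 over a median of 502 to 588 CPM in FYH, and the young codes were at 441 CPM in CH1, 525 CPM in CH2 and 267 CPM in Y2. It was found in all 10 codes, as was PRSS16/CG9953 DAPMA1EVG011580, named after a human serine protease of the thymus, with 198 CPM in the mixed sample and 242 CPM in the young sample.

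The other abundant serine proteases were uneven between codes. TMPRSS11D/L(2)K05911 m000001F_a47.68, named after a human trypsin-like protease of the airway, had 208 CPM in the mixed sample and 64.8 CPM in the young sample. It was at 0 in F4W, with a median of 42.4 CPM and a highest value of 620 CPM in FYH among the mixed codes, against 51.8 CPM in CH1, 32.0 CPM in CH2 and 141 CPM in Y2. PRSS44/CG5390 DAPMA1EVG024500 had 181 CPM in the mixed sample and 87.7 CPM in the young sample, and among the mixed codes it lay between 0 in F4W and 323 CPM in FYB. PRSS56/L(2)K05911 m000001F_a26.45, whose human namesake acts in the eye, had codes that did not overlap. How often this holds over all genes was not counted. Its mixed codes lay between 71.8 CPM in MY1 and 200 CPM in F4W, with a median of 120 CPM, against 57.1 CPM in CH1, 46.3 CPM in CH2 and 40.0 CPM in Y2.

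Among carboxypeptidases, CPA4/CG3108 DAPMA1EVG012742, named after a human carboxypeptidase, had 155 CPM in the mixed sample and 51.9 CPM in the young sample. Its mixed codes ran from 0 in F4W and FO1 over a median of 23.2 CPM to 277 CPM in FYB, and its young codes were at 44.4 CPM in CH1, 51.0 CPM in CH2 and 66.7 CPM in Y2. FYB and FYH were thus high, and the codes of both samples overlapped. No gene of the list carries a CPB symbol.

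Of the lipase genes, 3 had enough counts for a ratio. PNLIP/CG5966 DAPMA1EVG029156, named after human pancreatic lipase, was the evenest of them, with 92.5 CPM in the mixed sample and 84.3 CPM in the young sample. Its codes lay between 49.9 CPM in F4W and 127 CPM in MY2 in the mixed sample, against 57.2 CPM in Y2 to 96.1 CPM in CH2 in the young sample. PNLIPRP1/CG6847 DAPMA1EVG018988 had 68.0 CPM in the mixed sample and 148 CPM in the young sample, and within the mixed sample it ran from 24.3 CPM in MY2 over a median of 68.5 to 421 CPM in FO1. PNLIPRP2/CG5966 DAPMA1EVG022984 had 70.5 CPM in the mixed sample and 102 CPM in the young sample. A further gene, PNLIPRP2/CG5966 DAPMA1EVG022629, had 1 count in each sample.

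AMY1A/AMY DAPMA1EVG018035, named after human salivary amylase, made up most of the amylase level. It had 184 CPM in the mixed sample and 210 CPM in the young sample, with mixed codes from 129 CPM in FYB over 161 to 449 CPM in F4W and young codes at 237 CPM in CH1, 232 CPM in CH2 and 124 CPM in Y2. The other two amylase genes, both AMY2B, are described with the genes that differed most.

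The cathepsins were led by CTSB/CTSB1 DAPMA1EVG019691 and CTSF/CG12163 DAPMA1EVG031946, both cysteine proteases of the lysosome in humans. CTSB had 533 CPM in the mixed sample and 410 CPM in the young sample. Its mixed codes lay between 324 CPM in F4W and 702 CPM in FO1 around a median of 492, and its young codes were at 458 CPM in CH1, 491 CPM in CH2 and 192 CPM in Y2. CTSF had 544 CPM in the mixed sample and 306 CPM in the young sample, and it was high in 1 code of each sample, with 774 CPM in FYB and 671 CPM in Y2. The other young codes were at 180 CPM in CH1 and 222 CPM in CH2, so the low young level of CTSF is that of CH1 and CH2.

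CTSC/SWIM DAPMA1EVG023900, whose human namesake activates other proteases by trimming their ends, was low in Y2. It had 254 CPM in the mixed sample and 334 CPM in the young sample, with 344 CPM in CH1, 489 CPM in CH2 and 64.8 CPM in Y2. CTSS/CP1 DAPMA1EVG024005 had 183 CPM in the mixed sample and 217 CPM in the young sample, and CTSS/CG5367 DAPMA1EVG022789 had 94.6 CPM in the mixed sample and 83.4 CPM in the young sample. Cp1 is the fly cathepsin L. The CP1-named gene was highest in FO1, at 572 CPM, where the CG5367-named gene was lowest, at 10.04 CPM. For all of these cathepsins the mixed codes overlapped the young ones. The heat map of named genes by library code shows these levels beside those of the other enzymes.

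**Figure D1:**
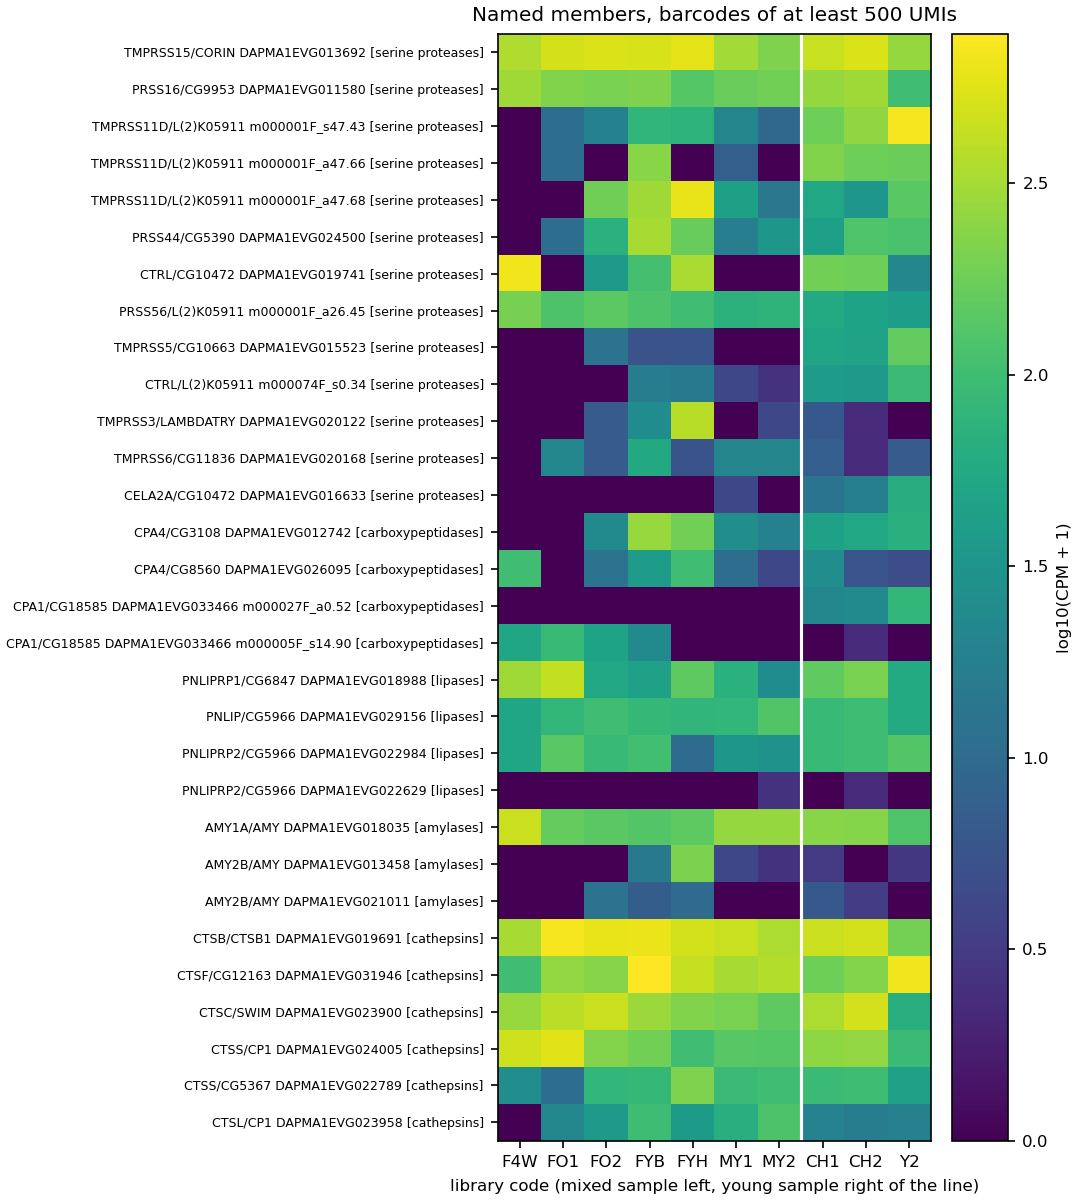
Level of the named genes, as log10(CPM + 1) by colour, in the kept barcodes of each library code, with the 7 mixed codes left of the line and the 3 young codes right of it. TMPRSS15, PRSS16 and the 5 cathepsins listed first have counts in every code, whereas several TMPRSS11D, CPA and AMY2B genes are at 0 in F4W or FO1.

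To find the genes that differed most, each gene with at least 50 counts over both kept sums was checked for a ratio of 4-fold or more, with counts under 3 set to 3. Of the 120 genes, 13 had no count in any barcode, 20 (these 13 included) had none in either kept sum, and 49 reached 50 counts. Among the 49, 6 were called higher and 5 lower in the mixed sample. Of all 8011 genes tested, 24.7% were called, 13.6% higher and 11.1% lower, so the enzyme genes were called about as often as any gene. The median log2 ratio was 0.26 over the 49 genes and 0.52 over all genes tested. By group, 2 of 28 serine proteases were called higher and 4 lower, 2 of 8 carboxypeptidases higher and 1 lower, 1 of 2 amylases higher, 1 of 8 cathepsins higher, and none of 3 lipases.

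The genes called higher include secreted enzymes carried by few barcodes. AMY2B/AMY DAPMA1EVG013458 had 65 counts in the mixed sample and 3 in the young sample, a ratio of 18.0 (5.91 to 89.8). FYH gave 207 CPM against a median of 1.62 CPM over the mixed codes, 32 of the 65 counts lay in 1 barcode, and the ratio was 6.02 without FYH, 10.7 without CH1 and 11.5 without CH2. TMPRSS3/LAMBDATRY DAPMA1EVG020122, named after fly lambdaTry, a trypsin, had 118 counts in 10 barcodes of the mixed sample and 6 counts in the young sample, a ratio of 16.4 (7.30 to 45.5), and it too was highest in FYH, at 381 CPM, with a ratio of 5.27 without that code. CPA1/CG18585 m000005F_s14.90 had 49 counts in 34 mixed barcodes and 1 count in the young sample, a ratio of 13.6 with the young count set to 3 (6.99 to 1644 from the counts themselves), or 8.04 without CH1 and 8.65 without CH2.

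A further pair called higher depended on 1 barcode each. TMPRSS6/CG11836 DAPMA1EVG020168 had 97 counts in the mixed sample, 69 of them in 1 barcode, and 10 in the young sample. Its ratio of 8.08 was 2.91 without that barcode and 3.51 without FYB. CTSL/CP1 DAPMA1EVG023958, the only cathepsin called, had 240 counts in the mixed sample, 70 of them in 1 barcode, and 39 in the young sample. Its ratio of 5.12 was 3.83 without that barcode and 3.69 with TMM scaling. In all 6 genes the mixed codes overlapped the young ones.

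All 5 genes called lower had code ranges that did not overlap, and in each Y2 was the highest code. The share of all genes with such ranges was not counted, so the lack of overlap is not read as particular to these genes. CPA1/CG18585 m000027F_a0.52 had no count in the kept mixed barcodes and 80 counts in the young sample, at least 32.0-fold lower in the mixed sample (3 counts over the sample as the floor). CELA2A/CG10472 DAPMA1EVG016633, named after a human pancreatic elastase, had 1 mixed count and 58 young counts, 23.2-fold lower with the mixed count set to 3 (12.0 to 2798 from the counts). TMPRSS5/CG10663 DAPMA1EVG015523 had 9 mixed counts and 167 young counts, 22.3-fold lower (11.5 to 49.6). Without FYB the mixed over young ratios were 0.0597, 0.0824 and 0.0286 for these 3 genes, and without Y2 0.0508, 0.0773 and 0.0674, so each still passed 4-fold. CPA1/CG18585 m000027F_a0.52 and CPA1/CG18585 m000005F_s14.90 both carry the identifier DAPMA1EVG033466, which 14 genes of the gene list share, and they differed in opposite directions between the samples. CPA1 m000027F_a0.52, CELA2A DAPMA1EVG016633 and TMPRSS5 were spread thinly in the young sample: no kept barcode held more than 3 counts of any of them, and 7.58% to 8.27% of their young counts lay in kept barcodes.

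The other two genes called lower were concentrated. TMPRSS11D/L(2)K05911 m000001F_s47.43 had 136 counts in the mixed sample and 748 in the young sample, 6.60-fold lower (5.49 to 7.99). Its codes ran from 0 in F4W to 79.1 CPM in FYB in the mixed sample, against 176 CPM in CH1, 253 CPM in CH2 and 701 CPM in Y2. It was counted in 125 young barcodes, with up to 49 counts in 1 of them. Its mixed over young ratio was 0.151, or 0.0660 without FYB and 0.230 without Y2. CTRL/L(2)K05911 m000074F_s0.34 had 26 mixed counts and 115 young counts, 5.31-fold lower (3.45 to 8.47), with a mixed over young ratio of 0.188, which was 0.0693 without FYB and 0.254, no longer past 4-fold, without Y2. TMPRSS11D m000001F_s47.43 and TMPRSS11D m000001F_a47.68 lie on the same contig with similar names and likewise differed in opposite directions. A division of reads between such copies was not tested for either pair.

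Other enzymes of digestion and of the lysosome were counted beside them. Of the other gut peptidases, 5 of 26 tested genes were called higher and 1 lower, and the 2 most abundant, CPM/CG4678 DAPMA1EVG024455 and ACE/ANCE DAPMA1EVG021755, had 844 and 729 CPM in the mixed sample and 818 and 865 CPM in the young sample. Of the enzymes that digest sugars and chitin, 5 of 16 were called higher and 3 lower. The leading chitinase genes differed in opposite directions: CHIA/CG13675 DAPMA1EVG017128 had 459 CPM in the mixed sample and 9.51 CPM in the young sample, and CHIT1/CHT7 DAPMA1EVG012794 had 5.40 CPM in the mixed sample and 196 CPM in the young sample. Of 11 other lipases 1 was called higher and 2 lower, of 18 lysosomal genes 3 higher and 1 lower, and of 17 protease inhibitors 1 higher and 1 lower.

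The enzyme groups differed in how their level changed with the depth of the barcode. The sums by depth given here pool the library codes of a sample. In the mixed sample the share of UMIs in kept barcodes ran from 25.7% in FYB to 56.6% in MY2, so depth and code are mixed in them. In the mixed sample the genes named PRSS, CTRB, CTRL and CELA fell steadily with depth. They had 3035 CPM in barcodes under 100 UMIs, 2398 CPM at 100 to 200 and 1609 CPM at 200 to 500. At 500 to 1000 they had 1047 CPM, at 1000 to 2000 801 CPM and at 2000 or more 668 CPM. The TMPRSS genes stayed between 1124 and 1292 CPM in all 6 depth classes. Cathepsins lay between 1416 and 2129 CPM and were highest at 1000 to 2000 UMIs. Carboxypeptidases had 1736 CPM at 100 to 200 UMIs and 658 CPM at 1000 to 2000, and amylases 374 and 251 CPM. At 2000 UMIs or more carboxypeptidases had 871 CPM and amylases 170 CPM. Lipases had 179 CPM at 100 to 200 UMIs and 260 CPM at 1000 to 2000, the reverse order.

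In the young sample the PRSS, CTRL and CELA genes had 1162 CPM under 100 UMIs and 659 CPM at 2000 or more, whereas TMPRSS genes had 968 and 1794 CPM, cathepsins 689 and 1652 CPM, and lipases 98.0 and 413 CPM. Carboxypeptidases had 734 CPM under 100 UMIs, 402 CPM at 1000 to 2000 and 1002 CPM at 2000 or more in the young sample, and amylases 169, 185 and 353 CPM. The secreted trypsin-like genes thus had their highest level in the shallowest barcodes of both samples, and the cathepsins and lipases did not. Comparing shallow barcodes (100 to 200 UMIs) with kept ones, the median gene had a ratio of 0.607 in the mixed sample and 0.379 in the young sample.

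**Figure D2:**
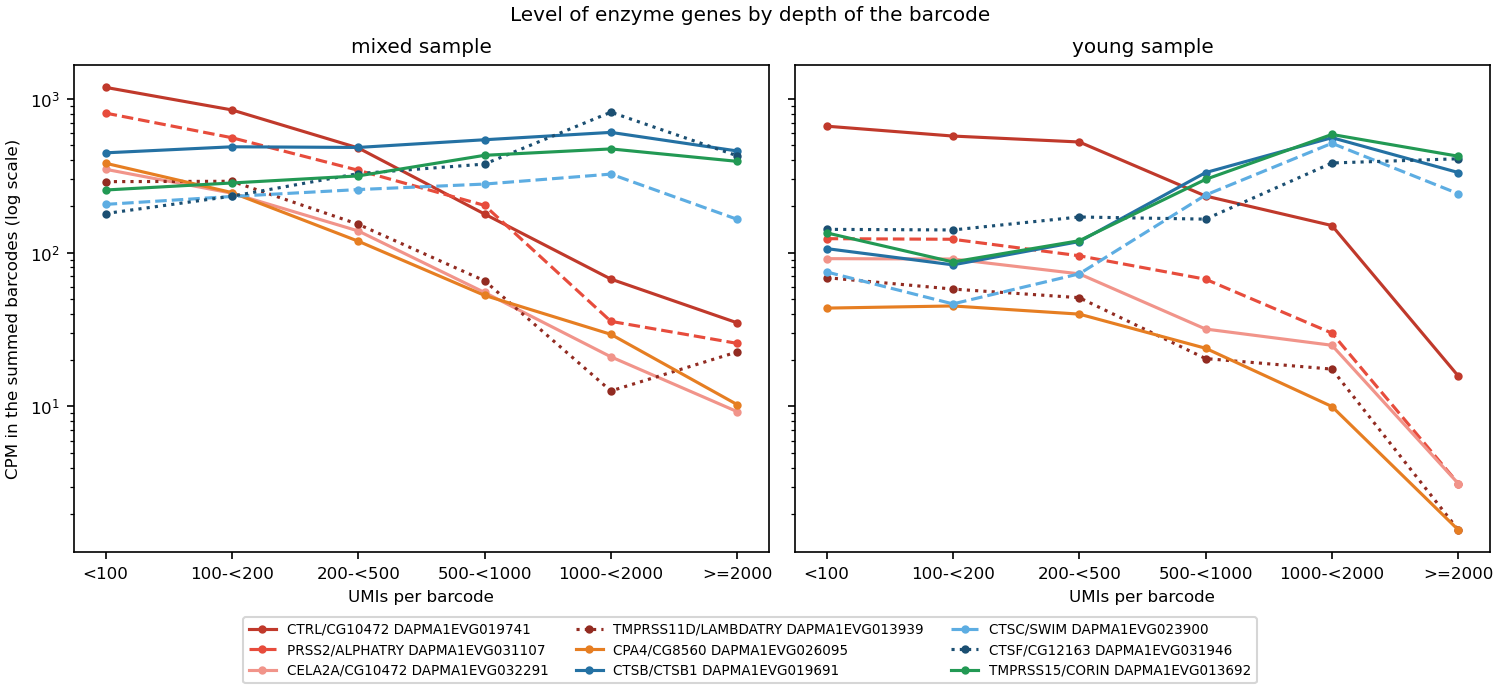
Level of single enzyme genes, in CPM on a log scale, against the depth of the barcode in UMIs, in the mixed (left) and young (right) samples. The genes drawn are named CTRL, PRSS2, CELA2A, TMPRSS11D, CPA4, CTSB, CTSC, CTSF and TMPRSS15. CTRL/CG10472 falls from 1184.5 CPM in mixed barcodes under 100 UMIs to 34.9 CPM at 2000 or more. Sums are not drawn. Summed, the 14 genes skewed to shallow barcodes fall from 3939 to 133 CPM over the same mixed classes. The cathepsins outside those 14 stay between 1202 and 2115 CPM there.

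Gene by gene, 14 of the 54 enzyme genes with at least 50 counts in shallow and kept mixed barcodes together were at least 4-fold higher in shallow than in kept barcodes, against 2.18% of 7529 genes. Of 46 young ones 3 were, against 2.54% of 6997 genes. At least 4-fold lower in shallow barcodes were 4 of the 54 mixed genes, against 2.83% of all genes, and 16 of the 46 young genes, against 24.2%. The 14 are 6 serine proteases, 3 carboxypeptidases, 2 amylases and 3 cathepsins, and none is a lipase. Without FYB 9 of 35 genes passed, all 9 of them among the 14. They were chosen by their mixed values, so their mixed ratios only describe them and the young sample is the one that the choice did not use. Of the 14, 9 reached 50 counts in shallow and kept young barcodes together, and all 9 were higher in its shallow barcodes, by 3.04-fold to 5.204-fold. Of all 6997 young genes tested, 25.8% were higher there. The 164 genes of all kinds chosen in the same way in the mixed sample behaved alike. Of these, 84 had enough young counts and 71 were higher in shallow young barcodes, with a median of 2.84-fold and 16 past 4-fold. The 30 young ratios of enzyme genes tested in both samples but not chosen had a median of 0.251, and 1 of them was above 1. Over all 46 enzyme genes tested in the young sample, the median was 0.423 and 16 were above 1. These 46 include genes with too few mixed counts to be chosen, so a young skew was not confined to the 14. Of the fat cell markers, 3 of 8 tested were at least 4-fold higher in shallow mixed barcodes, with a median of 2.67-fold, and none of 8 in the young sample, with a median ratio of 0.972. Of the markers of the digestive epithelium, 3 of 19 were in the mixed sample and none of 13 in the young sample. Their part in the levels of the 14 genes was not tested.

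The chymotrypsin-like gene CTRL/CG10472 DAPMA1EVG019741 shows the pattern at the highest counts. In the mixed sample it had 845 CPM in shallow barcodes and 89.95 CPM in kept barcodes (9.39-fold), and in the young sample 572 CPM in shallow barcodes and 145 CPM in kept ones (3.95-fold). In shallow barcodes its mixed codes ran from 97.0 CPM in MY2 over a median of 331 to 2311 CPM in FYH, and its young codes were at 656 CPM in CH1, 804 CPM in CH2 and 75.8 CPM in Y2. FYH was thus highest and MY2 lowest among the mixed codes, CH2 highest and Y2 lowest among the young ones, and the codes of both samples overlapped. FYB gave most of the shallow mixed counts of this gene, 1632. PRSS2/ALPHATRY DAPMA1EVG031107, the trypsin-like gene, had 558 CPM in shallow and 83.5 CPM in kept mixed barcodes (6.68-fold), and 122 CPM in shallow and 36.7 CPM in kept young barcodes (3.32-fold). It was highest in FYH and lowest in MY2 among shallow mixed barcodes, at 1724 and 19.4 CPM.

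The elastase-like CELA2A/CG10472 DAPMA1EVG032291 was 8.89-fold higher in shallow barcodes in the mixed sample and 4.202-fold in the young sample. TMPRSS11D/LAMBDATRY DAPMA1EVG013939 was 8.97-fold and 4.06-fold higher, and was the TMPRSS gene among the 14. The carboxypeptidases CPA4/CG8560 DAPMA1EVG026095 and CPA1/CG18585 m000022F_s9.41 were 8.22-fold and 6.20-fold higher in the mixed sample, and 3.47-fold and 3.25-fold higher in the young sample. The amylases AMY2B/AMY DAPMA1EVG013458 and AMY2B/AMY DAPMA1EVG021011 had ratios of 6.12 and 7.19 in the mixed sample and fewer than 50 counts in shallow and kept young barcodes together, as had PRSS2/SB DAPMA1EVG031107 (13.9), CELA2A/JON65AIV DAPMA1EVG013653 (12.7) and CTSH/CG5367 DAPMA1EVG030387 (4.33).

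Cathepsins fell on both sides. CTSV/CP1 DAPMA1EVG023946 and CTSD/CATHD DAPMA1EVG034121 were among the 14, with 10.5-fold and 8.65-fold higher levels in shallow mixed barcodes and 5.204-fold and 3.04-fold higher levels in shallow young ones. CTSV is close to cathepsin L in humans, and CTSD is the aspartic protease of the lysosome. The other 15 cathepsin genes, which include the leading CTSB, CTSF and CTSC, had 1263 CPM in shallow and 1758 CPM in kept barcodes of the mixed sample, and 514 and 1431 CPM in those of the young sample. A second aspartic cathepsin, CTSD/CATHD DAPMA1EVG028673, had 39.3% of its mixed and 7.23% of its young UMIs in kept barcodes, and it was singled out after its values were seen. The plot of UMI shares shows it apart from the other genes, and the skewed genes at the lower left.

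**Figure D3:**
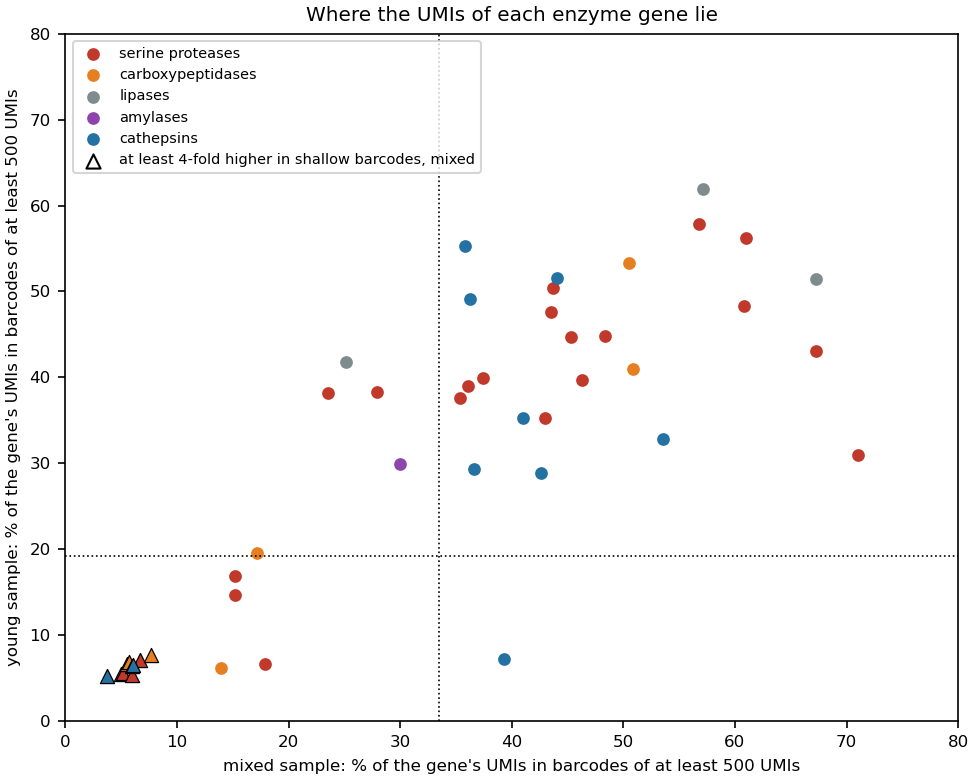
Share of each gene's UMIs that lie in kept barcodes, in percent, with the mixed sample on the horizontal and the young sample on the vertical axis, for the 45 enzyme genes with at least 50 counts over all barcodes in both samples. Triangles mark genes at least 4-fold higher in shallow mixed barcodes, which lie under 10% on both axes, and dotted lines mark the share over all genes, 33.5% and 19.2%.

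The library codes differed strongly in the level of the 14 genes. In shallow barcodes their sum was 8872 CPM in FYH, 2733 CPM in FYB, 1660 CPM in F4W, 1373 CPM in FO1, 1240 CPM in FO2, 1054 CPM in MY1 and 320 CPM in MY2, against 1168 CPM in CH1, 1304 CPM in CH2 and 201 CPM in Y2. In kept barcodes it was 1268 CPM in FYH, 377 CPM in FYB, 133 CPM in FO2, 32.6 CPM in MY1, 30.8 CPM in MY2 and 20.1 CPM in FO1, against 372 CPM in CH1, 263 CPM in CH2 and 61.0 CPM in Y2. F4W was the exception, with 3218 CPM in its 41 kept barcodes, more than in its shallow ones. All of the 129 counts behind that value came from 2 barcodes, with 68 and 61 counts. The 15 other cathepsins lay between 911 CPM in MY2 and 2296 CPM in FO2 in shallow mixed barcodes. In shallow young ones they lay between 491 CPM in Y2 and 524 CPM in CH2. The codes thus did not overlap in shallow barcodes and did in kept ones, and no share over all genes was counted beside this.

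**Figure D4:**
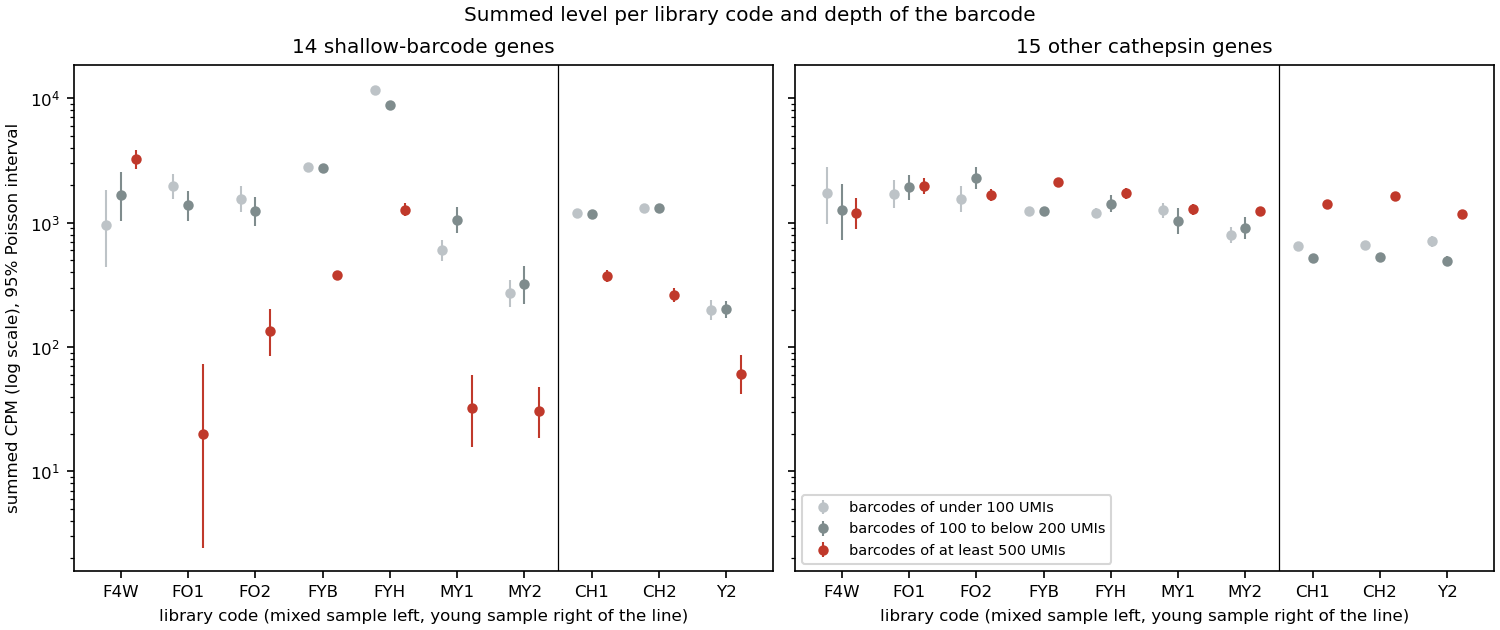
Summed level, in CPM on a log scale, of the 14 genes (left) and of the other 15 cathepsins (right) in shallow and kept barcodes of each library code, with exact 95% Poisson intervals. For the 14 genes the shallow barcodes lie above the kept ones in every code except F4W. The cathepsins run from 911 to 2296 CPM in shallow and from 1198 to 2129 CPM in kept mixed barcodes, and from 491 to 524 CPM in shallow and from 1174 to 1625 CPM in kept young barcodes.

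How counts were spread over barcodes also changed with depth. A dispersion index of 1 means that counts fall on barcodes as a Poisson draw would place them, and higher values mean that few barcodes hold many counts. Among shallow mixed barcodes the index of the 14 genes, for the 13 with at least 50 counts there, had a median of 1.06, with CTSV/CP1 DAPMA1EVG023946 highest at 5.96. Among mixed barcodes of 500 to 1000 UMIs it was 20.6 for PRSS2/ALPHATRY and 6.03 for CTRL/CG10472. CTRL/CG10472 had an index of 2.19 in shallow young barcodes and 25.6 in young ones of 500 to 1000 UMIs. CTSH, with 47 counts, had 1.67. In the other enzyme genes the index rose too: 25 of them had a median of 1.04 and a highest of 3.43 in shallow mixed barcodes. At 500 to 1000 UMIs 20 had a median of 1.57 and a highest of 38.5. Of the 14 genes 3 had at least 50 counts there, with a median of 6.03. In the young sample 2 of the 14 had a median of 18.2 at that depth, and 17 other enzyme genes 1.88. A rise of the index with depth was thus not particular to the 14 genes, but the median of the few measured was higher.

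Few kept barcodes held most of the counts. The 14 genes had 959 counts in 352 kept mixed barcodes, and the 10 barcodes with most held 51.1% of them. They had 606 counts in 206 kept young barcodes, and the 10 with most held 63.5%. The leading mixed barcode, from FYH, had 1053 UMIs, 11.6% of them from the 14 genes, with 35 counts of CTRL/CG10472, 32 of AMY2B DAPMA1EVG013458 and 18 of PRSS2/ALPHATRY. The leading young barcode, from CH1, had 1319 UMIs, 10.5% of them from the 14 genes, with 76 counts of CTRL/CG10472 and 20 of PRSS2/ALPHATRY.

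Serine protease counts were about as frequent in barcodes with markers of other tissues. After thinning every kept barcode to 500 UMIs, 51.0% of 539 mixed barcodes with at least 2 muscle or neuron markers had a serine protease count, as did 51.2% of the 1714 other mixed barcodes. The young shares were 46.6% of 689 and 47.0% of 1410 barcodes. For the 14 genes they were 9.65% and 9.28% in the mixed sample, and 5.37% and 6.31% in the young sample, and for cathepsins 46.9% and 47.5% in the mixed sample. Cathepsins were more frequent in the young barcodes with these markers, at 40.1% (36.4% to 43.8%) against 33.4% (30.9% to 35.9%). Amylases gave 7.05% and 9.98% in the mixed sample, and 8.42% and 5.46% in the young sample. Before thinning, 77.0% and 70.2% of the mixed barcodes had a serine protease count, at median depths of 1244 UMIs and 866.5 UMIs. These shares pool the library codes. For the 14 genes the thinned share of kept mixed barcodes ran from 0% in FO1 to 17.9% in FYH. The shares of the 14 genes are not read as expression in single cells, and the source of these counts was not tested.

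Detection of whole enzyme groups was nearly independent in kept barcodes. For the 10 pairs of groups, the number of kept barcodes with both divided by the number expected within each library code and depth class lay between 0.986 and 1.18 in the mixed sample and between 0.963 and 1.10 in the young sample. Carboxypeptidases and amylases gave the highest ratio in both, with 184 barcodes against 156 expected in the mixed sample and 108 against 97.9 in the young sample. In shallow barcodes the ratios lay between 0.899 and 1.19 in the mixed sample, but in the young sample they reached 1.60 for serine proteases with amylases (103 barcodes against 64.5 expected), 1.66 for carboxypeptidases with lipases, 1.64 for carboxypeptidases with amylases and 2.35 for lipases with amylases (6 against 2.56). Single genes paired more strongly. Of 861 pairs of enzyme genes measurable in the mixed sample 90 were found together at least 2 times the expected number of times, against 3.31% of all gene pairs, and of 580 pairs in the young sample 71 were, against 5% of all gene pairs.

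A first set of genes found together holds trypsin-like, elastase-like and carboxypeptidase genes of the 14. Of their 17 measurable pairs in the mixed sample, 16 passed 2-fold, with a median of 4.37, and both measurable pairs in the young sample did. PRSS2/ALPHATRY and CTRL/CG10472 were together in 32 mixed barcodes against 7.33 expected and in 9 young barcodes against 1.51. CPA4/CG8560 DAPMA1EVG026095 joined CELA2A/CG10472 DAPMA1EVG032291 in 14 mixed barcodes against 2.11 expected. CELA2A/CG10472 DAPMA1EVG017127 and AMY1A, which are not among the 14, went with them: CELA2A DAPMA1EVG017127 and TMPRSS11D/LAMBDATRY shared 10 mixed barcodes against 1.55 expected, and AMY1A and TMPRSS11D/LAMBDATRY shared 20 mixed barcodes against 6.996 expected and 9 young barcodes against 2.96. In shallow barcodes 7 of 72 measurable pairs of the 14 passed 2-fold in the mixed sample, with a median of 1.41. In the young sample 17 of 19 did, with a median of 5.18. No share over all gene pairs in shallow barcodes was counted beside this, so these counts are not read as particular to the 14 genes.

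A second set joins a carboxypeptidase with serine proteases, 2 of which have names that share a contig. CPA4/CG3108 DAPMA1EVG012742 shared 36 mixed barcodes with TMPRSS11D m000001F_s47.43 against 8.16 expected, and 36 young barcodes against 4.66. It shared 74 mixed barcodes with TMPRSS11D m000001F_a47.68 against 21.6 expected, and 26 young barcodes against 3.11. PRSS44/CG5390 shared 54 mixed barcodes with it against 19.4 expected, and 12 young barcodes against 3.48. The 2 TMPRSS11D genes shared 47 mixed barcodes against 13.4 expected, and 46 young barcodes against 7.84. These pairs thus stood out in both samples, and reads shared between near-identical copies were not tested as a source.

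The next set appeared in the mixed sample. PNLIPRP1/CG6847 was found with TMPRSS5/CG13744 DAPMA1EVG026491 in 26 mixed barcodes against 5.84 expected and with TMPRSS9/CG18735 DAPMA1EVG030444 in 18 against 4.39, and these 2 proteases shared 22 barcodes against 4.17. The lipase PNLIP/CG5966 went instead with the first set, sharing 22 mixed barcodes with CTRL/CG10472 against 8.24 expected.

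Cathepsin S-like CTSS/CP1 DAPMA1EVG024005 was nearly absent from barcodes of the second set, a pattern noticed in the values. It shared no mixed barcode with TMPRSS11D m000001F_s47.43 against 12.2 expected, 1 with CPA4/CG3108 against 17.0 and 3 with PRSS44 against 30.0. In the young sample it shared none with CPA4/CG3108 or PRSS44, where 7.34 and 11.6 barcodes were expected, and 2 with TMPRSS11D m000001F_s47.43 against 15.02. With the lipase PNLIPRP1 it shared 1 mixed barcode against 14.4 expected and 3 young barcodes against 22.8. CTSL/CP1 was found with it more often than expected, in 37 mixed barcodes against 26.9 and 20 young barcodes against 6.59. The lysosomal CTSB and CTSC shared 242 mixed barcodes against 187 expected and 204 young barcodes against 130.

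**Figure D5:**
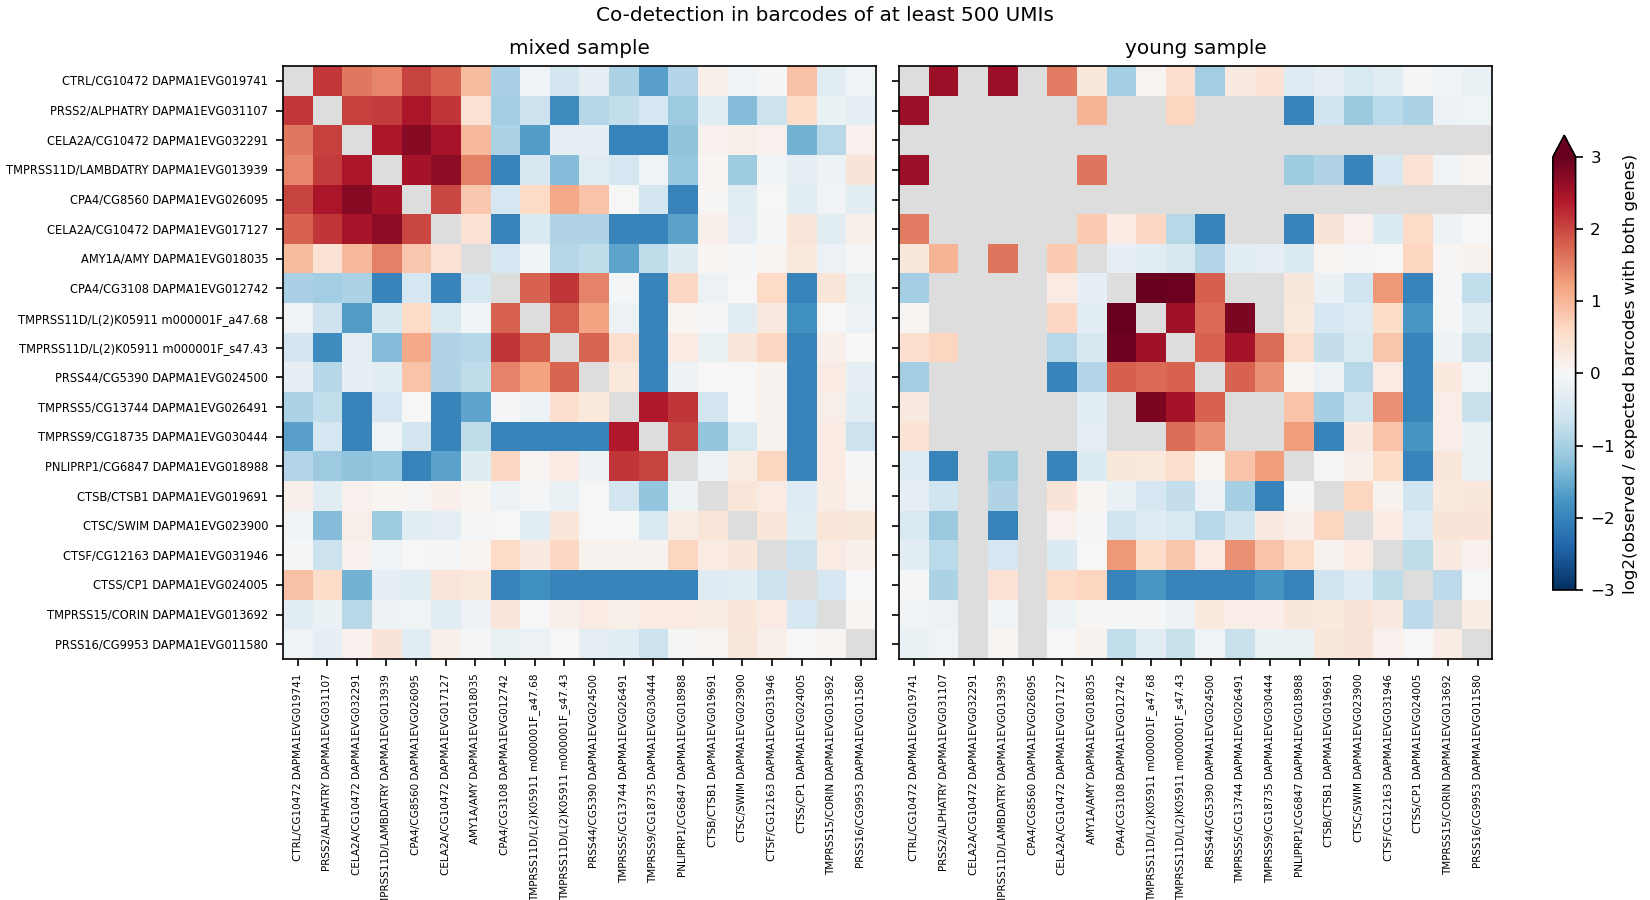
Observed over expected number of kept barcodes with both genes, as log2 by colour, for 20 enzyme genes in the mixed (left) and young (right) samples. Ratios under 0.25 are drawn at 0.25 and those over 8 at 8, grey marks pairs with too few expected barcodes, and the blue row is CTSS/CP1 against the CPA4, TMPRSS11D and PRSS44 genes.

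Barcodes rich in the 14 enzymes were then set against the rest. Of 6967 mixed barcodes with at least 200 UMIs, 47 had at least 2% of their UMIs from the 14 genes, and 29 of the 47 were among the 4425 such barcodes of FYB and 9 among the 431 of FYH, which leaves 18 without FYB. Of 11399 young barcodes, 54 did, 27 of 4003 in CH1, 26 of 3207 in CH2 and 1 of 4189 in Y2. Most were shallow, since 11 of the 47 mixed and 4 of the 54 young barcodes had at least 500 UMIs. The levels of the 14 genes themselves follow from this choice.

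A gene was counted as higher in the enzyme-rich barcodes if it was at least 4-fold higher and had at least 10 counts in them. Among the 37 other enzyme genes with enough counts in the mixed sample, 5 were, against 1.87% of genes that are not among the 120. Among 36 such genes in the young sample 3 were, against 0.829%. CELA2A/CG10472 DAPMA1EVG017127 was 35.7-fold higher in the mixed sample and 108-fold higher in the young sample, AMY1A was 15.3-fold and 33.0-fold higher, and PNLIP/CG5966 was 16.6-fold and 11.5-fold higher. TMPRSS6/CG4613 DAPMA1EVG013587 was 8.47-fold higher in the mixed sample, on 13 counts, and had a ratio of 0.998 in the young sample, on 2 counts. With rich barcodes set at 5% of UMIs the mixed ratio of AMY1A was 26.9. Of the 8 cathepsins outside the 14 with enough counts, none was higher in the rich barcodes in either sample. The 15 cathepsins outside the 14 together had 440 CPM in the rich barcodes and 1642 CPM in the other barcodes of the mixed sample, and 449 and 989 CPM in the young sample. All 18 cathepsins together went the other way, with 3178 and 1673 CPM in the mixed sample and 2412 and 999 CPM in the young sample. The rich barcodes were chosen by genes that include the remaining 3 cathepsins, so this split follows in part from the choice.

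Outside the enzyme and marker lists, 8 genes had at least 50 counts in the rich barcodes of both samples, and the 5 with the highest ratios were taken. FABP4/FABP DAPMA1EVG014823, named after proteins that bind fatty acids, was 95.6-fold higher in the mixed sample and 110-fold higher in the young sample. GM2A DAPMA1EVG017554, named after a lipid-binding activator protein of the human lysosome, was 86.1-fold and 261-fold higher. APOD/NLAZ DAPMA1EVG016906, named after lipocalins that carry lipids, was 85.6-fold and 109-fold higher. DAPMA1EVG018875, which has no symbol, was 80.8-fold and 317-fold higher, and FABP3/FABP DAPMA1EVG014822 was 12.7-fold and 3.49-fold higher. The sizes depended on single codes: without FYB the mixed ratios of FABP4, GM2A, APOD and DAPMA1EVG018875 were 466, 431, 399 and 423, and that of FABP3 was 7.18. The young ratio of FABP4 was 71.1 without CH1. That of FABP3 was 2.85 without CH1, 5.53 without CH2 and 2.57 without Y2. With all codes, without CH1 and without Y2, the young ratio of FABP3 was thus under the limit set above for a higher gene. FABP4, GM2A, APOD and DAPMA1EVG018875 stayed past that limit in both samples when any code was left out. FABP3 did so in the mixed sample.

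Markers of the digestive epithelium had 8408 CPM in the rich and 2180 CPM in the other mixed barcodes, and 11443 and 1715 CPM in the young ones. Of the 35 marker genes, 3 in the mixed sample and 9 in the young sample had no count in kept barcodes. MEP1B/CG15254 DAPMA1EVG016540, named after meprin, a metalloprotease of the human gut, gave 108 of the 172 mixed counts of these markers in rich barcodes and 164 of the 204 young ones. Hemocyte markers had 1809 and 8207 CPM in the rich and the other mixed barcodes, and 2693 and 7360 CPM in the young ones. Fat cell markers had 16181 and 6927 CPM in the mixed sample, and 7909 and 4244 CPM in the young sample.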

How the data were processed

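Whole-body cells of 2 Daphnia magna samples were barcoded with inDrops. For each sample the authors deposited a matrix of whole-number UMI counts per barcode and gene, with a gene list and a barcode list that names the library code. Aligner, genome build and cell filters are not given in the sources used here. The matrices were read as raw counts, and no column of per-sample values was left unmapped (0). Counts were summed over barcodes of at least 500 UMIs and scaled to CPM, counts in every 1000000 UMIs. With 1 sample per group no test was made: a gene needed 50 counts across the 2 sums and was called at a 4-fold ratio, counts under 3 were set to 3, and 95% intervals are exact (Poisson, conditional binomial or Clopper-Pearson) and cover counting error only. Depth ratios were computed over all codes of a sample unless a code is named. Dispersion and co-detection were computed within library code and depth class. Co-detection used genes in at least 20 kept barcodes and pairs with at least 1 expected barcode. Doublets were not removed. The 2 lanes of the mixed sample were taken as the barcode list gives them.

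The members and lists were chosen with earlier results of these data known. Named genes are the most abundant of each enzyme group (8 serine proteases, 6 cathepsins, 4 of each other group), the 5 highest and 5 lowest ratios, and the 2 most abundant genes of a comparison list, printed for gut peptidases and for sugar and chitin enzymes. The choice of the 14 genes skewed to shallow barcodes, the dispersion index, the co-detection limits, the 2% limit for enzyme-rich barcodes, and all genes named outside the rule (other called genes, the 14 genes, pairs, CTSD DAPMA1EVG028673) were made after values were seen. Of the 120 genes, 0 matched the RefSeq gene table by symbol or identifier, so no sequence is shown. Software was python 3.11.15, numpy 2.4.6, scipy 1.17.1, pandas 2.3.3, matplotlib 3.10.9 and edgeR 4.0.16 in R 4.3.3, used for TMM factors. The scripts were tested on simulated data. The values of some members were used in the sums and counts but are not reported here by name.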

Additional observations from a re-analysis of the deposited data

How the results depend on the processing

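No paired analysis was possible because each group is 1 sample and the labels carry no replicate numbers. The count of 11 genes past 4-fold was 6 in barcodes of at least 1000 UMIs, and 9 (without Y2) to 16 (without CH1) when a library code was left out. The 14 genes skewed to shallow barcodes numbered 9 without FYB and 16 without MY2. For the log2 ratios of mixed over young, serine proteases gave 0.01 as reported, 0.094 at 300 UMIs, -0.20 at 1000 UMIs, -0.46 with TMM, -0.50 with median-of-ratios scaling and 0.17 with barcodes weighted alike, and -0.30 to 0.22 without a code. In the same order carboxypeptidases gave 0.40, 0.52, 0.20, -0.069, -0.11 and 0.66, 0.94 without their most abundant gene, and -0.43 (without FYB) to 0.63. Lipases gave -0.53, -0.21 at 300 UMIs, -1.01 with TMM, -1.05 with median of ratios, -0.19 without their most abundant gene, and -0.64 to -0.37 without a code. Amylases gave -0.02, 0.27, -0.31, -0.49, -0.53 and 0.41 in the first order, 2.68 without AMY1A, and -0.18 to 0.33. Cathepsins gave 0.30, 0.53, 0.13, -0.17, -0.21 and 0.48, and 0.0025 (without FYB) to 0.42. No difference between the samples in these sums held its sign under every setting except that of the lipases. The shallow over kept ratio of serine proteases in the mixed sample was 1.32 for 200 to 500 UMIs and 1.79 against at least 1000 UMIs; within codes it was 0.560 in F4W, 2.21 in FO2, 1.37 in FYB, 1.84 in FYH, 1.85 in MY1 and 1.52 in MY2. In the young sample it was 0.743 against at least 1000 UMIs, 0.878 in CH1, 0.979 in CH2 and 0.470 in Y2. For cathepsins the mixed values were 0.837 and 0.760, then 1.10 in F4W, 1.04 in FO1, 1.36 in FO2, 0.634 in FYB, 1.34 in FYH and 0.862 in MY1, and the young values 0.431, 0.319, 0.332 in CH2 and 0.453 in Y2. Serine proteases with carboxypeptidases in the young sample gave 1.07 times the expected barcodes after thinning. The cause of these shifts was not tested. With a 5% limit 12 mixed and 31 young barcodes were enzyme-rich. Of 27 strong mixed pairs 2 fell under 2-fold without FYB, and of 22 young pairs none did when any code was left out. The limits and the settings for enzyme-rich barcodes were added after the data were seen. Depth limits the rarest genes, since 3 counts in the kept sums are 1.08 CPM in the mixed sample and 1.30 CPM in the young sample.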
